A study of Mus musculus with 48 samples.

Results

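The genes described here encode the protein subunits of the cytosolic ribosome, together with Rpl3l, the form of Rpl3 made in heart and skeletal muscle. They were taken by symbol: every gene named Rpl or Rps followed by a number, plus Rplp0, Rplp1, Rplp2 and Rpsa, without the Rps6k kinases and without symbols marked -ps. That rule uses no measured value, and it found 88 genes among the 31920 of the ventricle tables and the 31741 of the cell-fraction table. Of these, 54 carry names of the large subunit and 34 of the small subunit. Rps19bp1 matches the rule although its product binds Rps19 and is not a subunit.

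Hearts of FVB mice were profiled, either Wild type or with PLNR9C, an inherited change in phospholamban, the brake on the calcium pump, known from human dilated cardiomyopathy. Mice of each genotype received vehicle or JQ1, an inhibitor of BET bromodomain proteins, at 50 mg/kg. Whole left ventricle was taken at 8 weeks of age (labelled preDCM) and at 20 weeks (labelled DCM), while pools of cardiomyocytes and of non-myocytes date from 16 weeks (labelled DCM). Each of these 4 sample types held the 4 combinations of genotype and treatment with 3 libraries each, which gives 16 groups and 48 libraries. The stage labels are carried by the Wild type libraries of the same age as well. The sources used here do not give how the mutation is carried, how long JQ1 lasted or how many animals entered a cell pool.

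The ribosome makes protein in every cell, and its large subunit holds the centre that joins amino acids. Rpl3 sits close to that centre, and in adult striated muscle Rpl3l takes its place in a share of the ribosomes. Rplp0, Rplp1 and Rplp2 form the stalk that recruits elongation factors, and Rps2 lies in the small subunit near the entry of the messenger RNA. Many messenger RNAs of ribosomal proteins start with a stretch of C and T called a TOP motif, through which their translation follows growth signals.

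The sequences below show the annotated starts of the genes that rose most often with JQ1 in the results that follow, beside Rpl3l. Each covers 20 bases before and 20 bases from the start, read from RefSeq on GRCm38.p6 along the strand of the gene. Capitals mark the longest unbroken run of C or T where it reached 8 bases. The table of starts held 64 of the 88 genes, and Rpl3 and Rps20 were not among them.
Rpl3l, chr17:24727806-24727845, plus strand: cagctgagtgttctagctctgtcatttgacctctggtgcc
Rps2, chr17:24720043-24720082, plus strand: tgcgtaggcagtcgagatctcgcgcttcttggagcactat
Rplp0, chr5:115559447-115559486, plus strand: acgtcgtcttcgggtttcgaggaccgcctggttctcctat
Rpl7a, chr2:26910787-26910826, plus strand: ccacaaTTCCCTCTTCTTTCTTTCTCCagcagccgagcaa
Rpl41, chr10:128549149-128549188, minus strand: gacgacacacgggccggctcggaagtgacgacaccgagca
Rps24, chr14:24490658-24490697, plus strand: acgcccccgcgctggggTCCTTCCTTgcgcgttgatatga
Rpl15, chr14:18270967-18271006, minus strand: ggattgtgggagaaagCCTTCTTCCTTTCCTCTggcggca
Rpl12, chr2:32961692-32961731, plus strand: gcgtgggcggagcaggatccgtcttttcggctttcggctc
Rpl10a, chr17:28328451-28328490, plus strand: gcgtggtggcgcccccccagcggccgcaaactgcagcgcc
Rps15a, chr7:118116128-118116167, minus strand: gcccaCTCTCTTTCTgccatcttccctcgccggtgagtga

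An unbroken run of at least 8 C or T lay in the 40-base window of 28 of the 64 ribosomal protein genes with a listed start (43.8%). Over all 27025 genes with a listed start it lay in 15.9%, counting the first listed start of each gene and the gene's own strand only. Of the 9 genes above that rose in at least 5 JQ1 comparisons, 4 held such a run (44.4%). The window of Rpl3l held none. The count takes a run on either side of an annotated start, so a window without one does not show that a TOP motif is missing. Where each messenger RNA starts was not measured. Rps2 and Rpl3l are neighbours on chromosome 17, with Rps2 at chr17:24720063-24721927 and Rpl3l at chr17:24727829-24736149, both on the plus strand. 5901 bases separate them in the deposited coordinates, and Snora64 and Ndufb10 lie between. The coding sequences of Rpl3 (1212 bases) and Rpl3l (1224 bases) in GENCODE M21 were 74.2% identical over 1209 aligned bases, with a longest identical run of 22 bases.

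Ventricle libraries held 16984138 to 27086694 assigned reads, and libraries of the cell fractions 10041094 to 13146653. The 88 genes together took 0.716% to 0.868% of the reads in non-myocytes, 0.378% to 0.610% in cardiomyocytes, and in ventricle 0.389% to 0.487% at 8 weeks and 0.321% to 0.536% at 20 weeks. The 8 cardiomyocyte markers (Myh6, Tnnt2, Tnni3, Actc1, Myl2, Myl3, Actn2 and Ryr2) summed to 40819 to 84879 CPM (reads scaled to a common library size) in the myocyte pools and to 1113 to 8241 CPM in the others, so both fractions fit their labels and the non-myocytes still held cardiomyocyte RNA. In ventricle, fewer cells of a type and less RNA per cell cannot be told apart.

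Per base of gene length, Rplp0 and Rpl4 were among the highest in ventricle. At 8 weeks the median over 12 libraries was 198 RPKM (reads scaled by gene length and by library size) for Rplp0 and 148 for Rpl4. Rplp0 (230 RPKM) and Rpl8 (162 RPKM) were among the highest in cardiomyocytes. High levels in non-myocytes were those of Rpl10 (313 RPKM) and Rplp1 (293 RPKM). At the other end, Rpl10l had no read in any library, and Rpl39l reached at most 0.360 RPKM. Rpl29 is listed at 3 loci, of which the one on chromosome 9 took most reads, and reads of such near-identical copies may be split in a way the files do not show.

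Rpl3l was the form with more reads per base in vehicle Wild type ventricle and cardiomyocytes, and Rpl3 in non-myocytes. In vehicle Wild type ventricle at 8 weeks, Rpl3l measured 126, 115 and 113 RPKM in the 3 libraries and Rpl3 measured 16.3, 16.9 and 18.2 RPKM. Rpl3l was thus 88.6%, 87.2% and 86.1% of their summed level per base. In vehicle Wild type cardiomyocytes Rpl3l measured 130, 117 and 121 RPKM and Rpl3 17.8, 17.4 and 14.5 RPKM, a share of 88.0%, 87.0% and 89.3%. In vehicle Wild type non-myocytes Rpl3l measured 5.92, 8.91 and 5.80 RPKM against 77.8, 80.2 and 90.5 RPKM for Rpl3, a share of 6.03% to 10%.

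**Figure D1:**
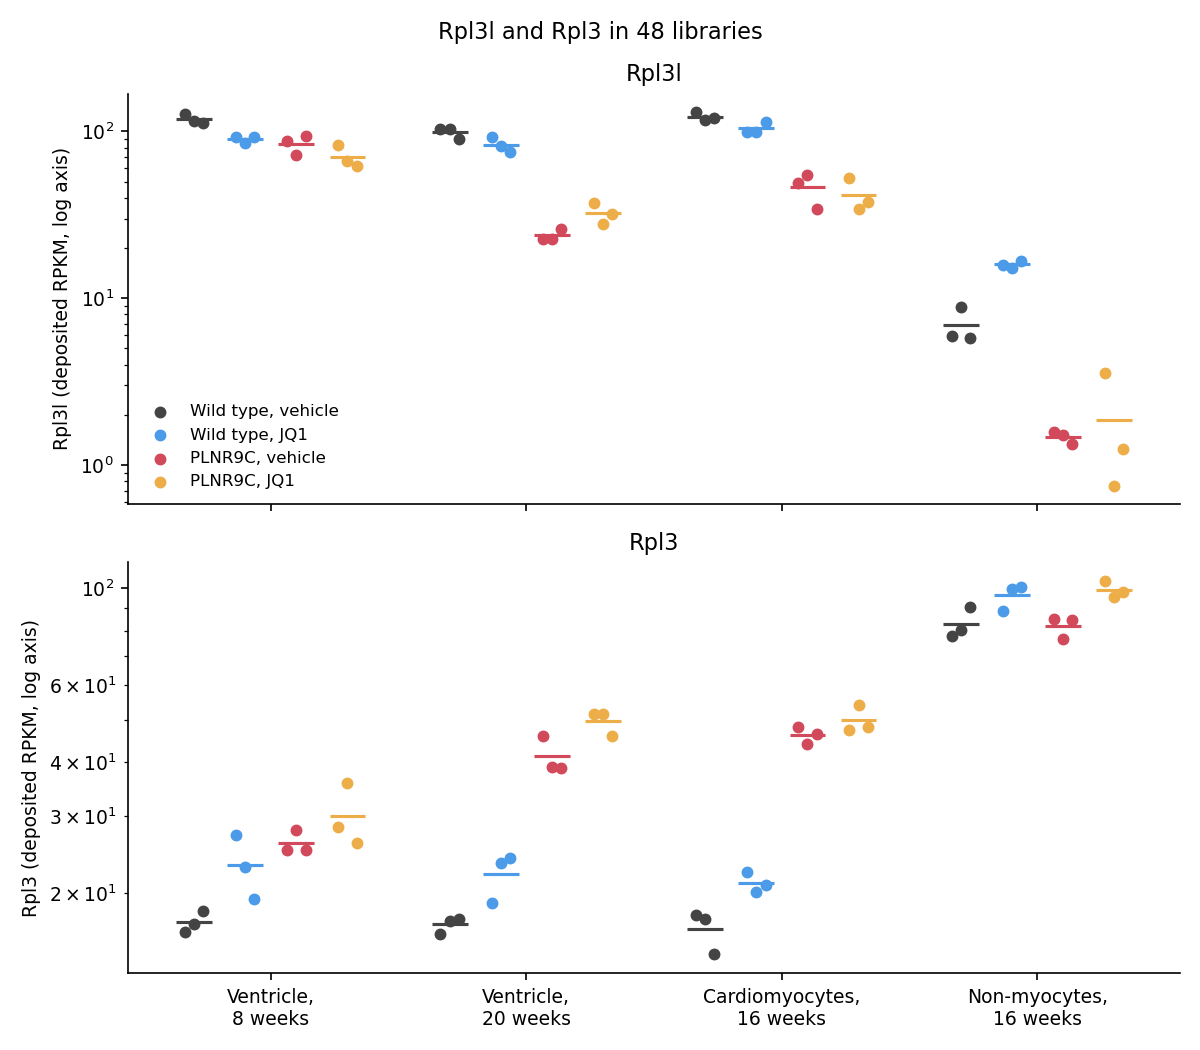
Level of Rpl3l (top) and Rpl3 (bottom) in deposited RPKM on log axes, 1 point per library and a line at the mean of each group of 3. Rpl3l fell from 89.8 to 104 RPKM in vehicle Wild type ventricle at 20 weeks to 22.8 to 26.0 RPKM in PLNR9C, while Rpl3 rose from 16.1 to 17.5 RPKM to 38.8 to 45.9 RPKM.

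PLNR9C hearts held less Rpl3l and more Rpl3 than Wild type hearts given vehicle. At 8 weeks, vehicle PLNR9C ventricle held 87.1, 71.7 and 93.8 RPKM of Rpl3l and 25.0, 27.9 and 25.0 RPKM of Rpl3. Every one of these Rpl3l values lay below the vehicle Wild type values and every Rpl3 value above them. In the edgeR quasi-likelihood test, with Benjamini-Hochberg adjustment over all genes, the log2 fold change of Rpl3l was -0.61 ± 0.12 (SE, adjusted p = 0.0046) and that of Rpl3 was 0.48 ± 0.11 (adjusted p = 0.0073). At 20 weeks Rpl3l was at 22.8, 22.8 and 26.0 RPKM in vehicle PLNR9C against 104, 104 and 89.8 RPKM in vehicle Wild type. Rpl3 was at 45.9, 39.0 and 38.8 RPKM against 16.1, 17.3 and 17.5 RPKM. In vehicle PLNR9C, all 3 libraries thus held more Rpl3 than Rpl3l per base, the reverse of every vehicle Wild type library. The edgeR log2 fold changes at 20 weeks were -2.31 ± 0.12 for Rpl3l (adjusted p = 3.1e-10) and 1.02 ± 0.09 for Rpl3 (adjusted p = 5.1e-08).

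In the cell fractions Rpl3l fell in both, and Rpl3 rose in cardiomyocytes. In vehicle PLNR9C cardiomyocytes Rpl3l measured 49.2, 55.1 and 34.2 RPKM and Rpl3 48.2, 44.0 and 46.4 RPKM, with no overlap with Wild type for either gene. The edgeR log2 fold changes were -1.57 ± 0.18 for Rpl3l (adjusted p = 9.5e-05) and 1.34 ± 0.10 for Rpl3 (adjusted p = 7.5e-06). In vehicle PLNR9C non-myocytes Rpl3l was at 1.57, 1.51 and 1.35 RPKM, below all 3 vehicle Wild type libraries (log2 fold change -2.19 ± 0.37, adjusted p = 0.0017 by edgeR). Rpl3 was at 84.9, 76.6 and 84.7 RPKM there, within the Wild type range or close to it (log2 fold change 0.01 ± 0.09, adjusted p = 0.97). Rpl3l in these PLNR9C libraries rested on 22 to 27 reads each. The summed cardiomyocyte markers averaged 2927 CPM in vehicle Wild type non-myocytes and 1775 CPM in vehicle PLNR9C, and their part in the fall of Rpl3l was not tested.

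**Figure D2:**
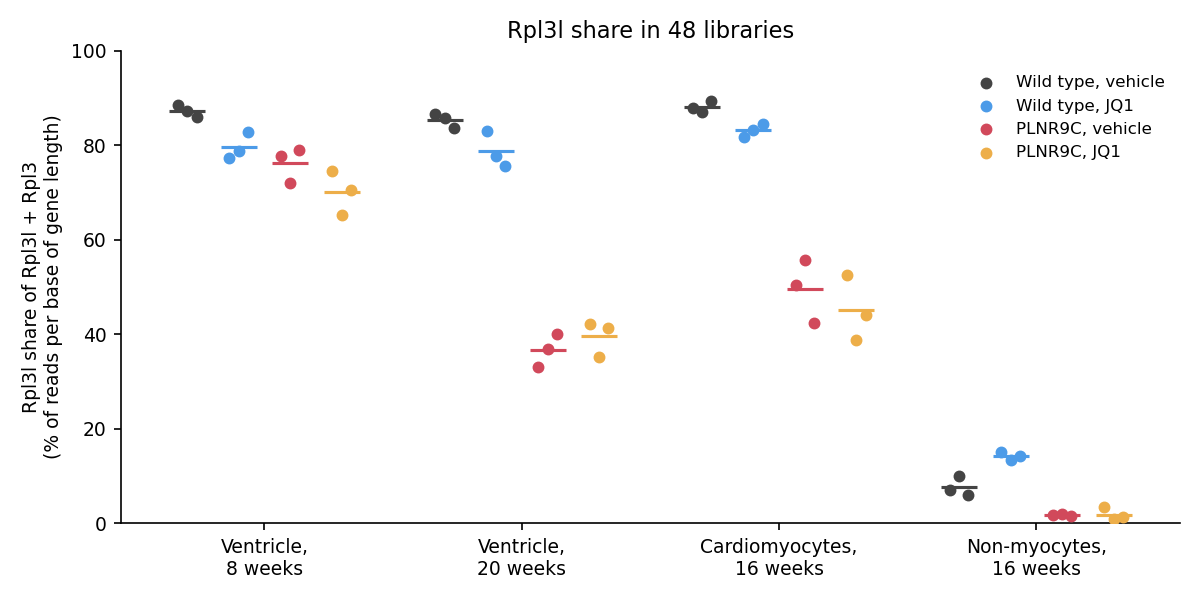
Rpl3l as a percentage of Rpl3l plus Rpl3, each in reads per base of gene length, 1 point per library and a line at the mean of each group of 3. The share was 83.7% to 86.6% in vehicle Wild type ventricle at 20 weeks and 33.2% to 40.1% in vehicle PLNR9C, and at most 15.1% in any non-myocyte library.

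The balance of both genes within a library, log2 of Rpl3l reads over Rpl3 reads with 0.5 added to each, does not depend on the scaling between libraries. It was tested by exact two-sided permutation of labels within the other factor, for 9 contrasts adjusted together. The PLNR9C balance lay below that of Wild type, by -0.92 in ventricle at 8 weeks and -2.93 at 20 weeks, and among the fractions by -2.75 for cardiomyocytes and -2.79 for non-myocytes (exact permutation, p = 0.005 in each, the smallest that 400 arrangements allow, adjusted p = 0.009). Each of these values is the mean of the differences with vehicle and with JQ1. With vehicle and with JQ1 they were -1.09 and -0.74 at 8 weeks, and -3.33 and -2.53 at 20 weeks. In cardiomyocytes they were -2.92 and -2.58, and in non-myocytes -2.16 and -3.43. As a mean over the 4 combinations of genotype and treatment, cardiomyocytes and non-myocytes differed by 5.72 (exact permutation over 160000 arrangements, p = 1.25e-05, the smallest possible, adjusted p = 0.00011). The value of -2.79 for non-myocytes rests on 13 to 65 Rpl3l reads per PLNR9C library.

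Cardiomyocyte markers were lower in PLNR9C as well. Their summed level averaged 67246 CPM in vehicle Wild type ventricle at 20 weeks and 34993 CPM in vehicle PLNR9C, without overlap, and 70428 and 50335 CPM in cardiomyocytes. Rpl3l per 1000 CPM of these markers was 2.49 CPM ± 0.061 (SD, n = 3) in vehicle Wild type and 0.967 CPM ± 0.043 in vehicle PLNR9C ventricle at 20 weeks. In cardiomyocytes the same ratio was 2.86 CPM ± 0.16 and 1.35 CPM ± 0.26. In non-myocytes it was 3.51 CPM ± 0.062 and 1.28 CPM ± 0.22. At 8 weeks it was 2.97 CPM ± 0.20 and 2.46 CPM ± 0.27, and there alone the vehicle Wild type and PLNR9C means lay within 1.5 times of each other. The 7 fibroblast markers, by contrast, averaged 989 CPM in Wild type and 3139 CPM in PLNR9C vehicle ventricle at 20 weeks, and 196 and 819 CPM in vehicle cardiomyocytes.

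Rpl3 rose with JQ1 in 7 of 8 comparisons, and Rpl3l rose in 2 and fell in 1. In Wild type ventricle at 8 weeks, JQ1 libraries held 27.2, 22.9 and 19.3 RPKM of Rpl3 and 92.5, 84.7 and 93.1 RPKM of Rpl3l. All 3 Rpl3 values lay above vehicle and all 3 Rpl3l values below. The edgeR log2 fold change was 0.48 ± 0.11 for Rpl3 (adjusted p = 0.0034) and -0.34 ± 0.12 for Rpl3l (adjusted p = 0.049). The second call rests on all libraries together: it was lost in 8 of the 12 fits that left out 1 library, with adjusted p up to 0.15, and without the filter on low counts (0.0996). Cardiomyocyte markers averaged 64316 CPM with vehicle and 71886 CPM with JQ1 in these Wild type libraries, and Rpl3l per 1000 CPM of markers 2.97 CPM and 2.10 CPM. In PLNR9C ventricle at 8 weeks Rpl3 stood at 28.3, 35.7 and 26.1 RPKM with JQ1 (log2 fold change 0.32 ± 0.11, adjusted p = 0.032 by edgeR). That call was lost without PLNR9C JQ1 replicate 2 (0.16) or without PLNR9C vehicle replicate 1 (0.11) or 3 (0.089), and with total library size in place of TMM scaling (0.21, adjusted p = 0.20). Rpl3l stood at 82.5, 66.8 and 62.3 RPKM there and overlapped vehicle (adjusted p = 0.38). Without PLNR9C JQ1 replicate 1 Rpl3l passed downward (-0.29, adjusted p = 0.045 by edgeR), and per 1000 CPM of markers it was 2.46 CPM ± 0.27 with vehicle and 1.80 CPM ± 0.28 with JQ1.

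At 20 weeks Rpl3l rose with JQ1 in PLNR9C ventricle, to 37.5, 28 and 32.1 RPKM from 22.8, 22.8 and 26.0 RPKM. The groups did not overlap, and the edgeR log2 fold change was 0.52 ± 0.11 (adjusted p = 0.0027). Cardiomyocyte markers averaged 34993 CPM with vehicle and 46658 CPM with JQ1 in the same libraries, and Rpl3l per 1000 CPM of markers was 0.967 CPM ± 0.043 with vehicle and 1.03 CPM ± 0.13 with JQ1 (SD, n = 3). Rpl3 rose by a log2 fold change of 0.33 ± 0.09 (adjusted p = 0.0067), to 51.5, 51.4 and 45.8 RPKM. In Wild type at 20 weeks Rpl3 rose to 19.0, 23.4 and 24 RPKM (0.49 ± 0.09, adjusted p = 0.00061). Rpl3l measured 93.1, 82.0 and 74.9 RPKM there (-0.15 ± 0.11, adjusted p = 0.35). Cardiomyocyte markers averaged 67246 CPM with vehicle and 81730 CPM with JQ1 in these Wild type libraries. Rpl3l per 1000 CPM of markers was 2.49 CPM ± 0.061 with vehicle and 1.85 CPM ± 0.12 with JQ1, without overlap. The difference between the genotypes in the response of Rpl3l at 20 weeks was 0.66 ± 0.16 on the log2 scale and missed the threshold in edgeR (adjusted p = 0.094). It passed in DESeq2 (0.020) and without the filter on low counts (0.037), and without PLNR9C JQ1 replicate 2 (0.027) or Wild type JQ1 replicate 1 (0.046).

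In Wild type cardiomyocytes Rpl3 was at 22.3, 20.2 and 20.9 RPKM with JQ1, above the 3 vehicle libraries (log2 fold change 0.46 ± 0.10, adjusted p = 0.030 by edgeR). The call was lost when any of the 6 libraries compared was left out, with total library size (0.097) and with the replicate block (0.052). In PLNR9C cardiomyocytes Rpl3 was at 47.4, 54.1 and 48.1 RPKM with JQ1 and overlapped vehicle (0.13 ± 0.10, adjusted p = 0.44). In Wild type cardiomyocytes Rpl3l measured 188 to 213 CPM with vehicle and 174 to 202 CPM with JQ1. These ranges overlapped, and edgeR did not call Rpl3l there. The summed cardiomyocyte markers averaged 70428 CPM with vehicle and 82167 CPM with JQ1, without overlap. Rpl3l per 1000 CPM of markers was 2.86 CPM ± 0.16 with vehicle and 2.25 CPM ± 0.24 with JQ1 in these libraries, without overlap. For PLNR9C cardiomyocytes it was 1.35 CPM ± 0.26 and 1.14 CPM ± 0.12, and the groups overlapped. In non-myocytes Rpl3 rose with JQ1 in both genotypes, by 0.41 ± 0.09 in Wild type (adjusted p = 0.0032) and 0.42 ± 0.09 in PLNR9C (adjusted p = 0.0026). With total library size the Wild type value of Rpl3 was 0.22 and no longer passed (adjusted p = 0.074). Rpl3l rose in Wild type non-myocytes to 15.8, 15.3 and 16.8 RPKM (1.40 ± 0.30, adjusted p = 0.0034). The summed cardiomyocyte markers averaged 2927 CPM with vehicle and 7612 CPM with JQ1, and Rpl3l per 1000 CPM of markers was 3.51 CPM ± 0.062 with vehicle and 3.59 CPM ± 0.26 with JQ1. In PLNR9C non-myocytes Rpl3l with JQ1 ranged from 0.753 to 3.57 RPKM, and the library with the most also held the most marker RNA, 3995 of a range of 1113 to 3995 CPM.

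Over both genotypes, JQ1 shifted the balance of Rpl3l to Rpl3 by -0.63 at 8 weeks (exact permutation, p = 0.01, adjusted p = 0.015). The shift was -0.81 in Wild type and -0.45 in PLNR9C. At 20 weeks it was -0.63 in Wild type and 0.17 in PLNR9C, with a mean of -0.23 that missed the threshold (exact permutation, p = 0.26, adjusted p = 0.29). In cardiomyocytes it was -0.59 and -0.25, with a mean of -0.42 (exact permutation, p = 0.05, adjusted p = 0.064). That mean passed without PLNR9C JQ1 replicate 1 or without PLNR9C vehicle replicate 3. In non-myocytes it was 1.02 and -0.25, with a mean of 0.39 (exact permutation, p = 0.33, adjusted p = 0.33). Given JQ1 in both genotypes, PLNR9C still held less Rpl3l than Wild type, by a log2 fold change of -1.65 at 20 weeks (adjusted p = 1.6e-08), -1.54 in cardiomyocytes (0.00019) and -3.11 in non-myocytes (0.00012). At 8 weeks it was -0.42 (0.061). Among the non-myocytes with JQ1, cardiomyocyte markers averaged 7612 CPM in Wild type and 2152 CPM in PLNR9C. Rpl3l per 1000 CPM of these markers was 3.59 CPM ± 0.26 and 1.40 CPM ± 0.20 (SD, n = 3). The PLNR9C libraries there held 13 to 65 reads of Rpl3l, and the part of the markers in the value of -3.11 was not tested.

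The genotype contrast over all ribosomal proteins is taken first in cardiomyocytes. There 29 of the 84 genes tested rose in PLNR9C and 1, Rpl3l, fell, where 14.3% of all genes rose and 11.8% fell. The median log2 fold change of the 84 was 0.29, against 0.00168 over all genes, and 80 of 84 lay above 0. Among the genes with the smallest p after Rpl3 was Rpl10 (0.71 ± 0.10), which completes the large subunit late in its assembly. Rps20 (0.64 ± 0.13), Rpl12 (0.58 ± 0.12) and Rps26 (0.58 ± 0.14) also rose, with adjusted p-values by edgeR between 0.0004 and 0.008. Rpl10 stood at 116, 119 and 96.7 RPKM in Wild type and at 211, 200 and 187 RPKM in PLNR9C. The count was 7 without Wild type vehicle replicate 3 and 16 without PLNR9C vehicle replicate 3. The 6 macrophage markers measured averaged 27.9 CPM in Wild type and 119 CPM in PLNR9C, and their part and that of the fibroblast markers in the counts was not tested.

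In ventricle at 20 weeks 19 of 85 genes rose and 3 fell, where 23.3% of all genes rose and 21.4% fell. The share that rose was near that of all genes, and the median log2 fold change was 0.091 against 0.0097 over all genes. After Rpl3 the leading genes that rose were Rps12 (0.48 ± 0.09, adjusted p = 0.00017), Rpl10 (0.41 ± 0.09), Rpl13a (0.43 ± 0.09), Rps16 (0.42 ± 0.11) and Rpl12 (0.33 ± 0.09). Rps12 stood at 22.1, 19.0 and 24 RPKM in vehicle Wild type and at 37.9, 37.6 and 33.4 RPKM in vehicle PLNR9C. These RPKM values, scaled by total reads, differ by more than the fold change of 0.48, which uses TMM scaling. Beside Rpl3l, Rps2 was among the genes that fell (-0.25 ± 0.10, adjusted p = 0.047). The Rps2 libraries of both groups overlapped, and its call was lost in DESeq2 (0.053) and with only the 6 libraries of both groups (0.070). Its value turned to 0.011 with total library size. Without Wild type vehicle replicate 2, 14 genes were called in place of 22.

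At 8 weeks 7 of 86 genes rose and 1 fell, where 7.86% of all genes rose and 6.5% fell. Rps26 (0.32 ± 0.08), Rpl12 (0.30 ± 0.09), Rpl10a (0.29 ± 0.08), Rps16 (0.26 ± 0.07) and Rpl17 (0.23 ± 0.07) rose with Rpl3, with adjusted p between 0.011 and 0.032 by edgeR, and each of these 5 calls was lost in at least 2 of the 12 fits that left out 1 library. The count was 3 without PLNR9C vehicle replicate 1 or Wild type vehicle replicate 3, and 4 without PLNR9C vehicle replicate 3 or Wild type vehicle replicate 2. In non-myocytes 0 of 85 genes rose by edgeR and 1, Rpl3l, fell, where 10.3% of all genes rose and 8.32% fell. There 6 genes had an unadjusted p under 0.05 (share of all genes not counted), and DESeq2 called 2. Without Wild type JQ1 replicate 1 or 3, which enter through the shared spread, the count was 2 as well.

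Between PLNR9C and Wild type mice that both received JQ1, a comparison added to those planned and not recomputed under the alternatives, 29 of 85 genes rose at 20 weeks and 1 fell, where 20.8% of all genes rose and 18.3% fell. After Rpl3 (0.87 ± 0.09), the leading genes were Rpl10 (0.56 ± 0.09, adjusted p = 6e-05 by edgeR), Rps12 (0.51 ± 0.09) and Rpl12 (0.47 ± 0.09). Rpl10 stood at 104, 96.1 and 82.8 RPKM in Wild type with JQ1 and at 179, 175 and 156 RPKM in PLNR9C with JQ1, without overlap. In cardiomyocytes 8 of 84 rose and 1 fell, where 13.6% of all genes rose and 12.3% fell. Rpl3 (1.01 ± 0.10) and Rpl10 (0.53 ± 0.10, adjusted p = 0.003) led there too. In non-myocytes 0 rose and 1, Rpl3l, fell (9.24% and 9.38% of all genes), and 7 had an unadjusted p under 0.05. At 8 weeks 0 rose and 0 fell by edgeR (3.43% and 2.54% of all genes), and 5 had an unadjusted p under 0.05. The shares of all genes under that unadjusted level were not counted.

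**Figure D3:**
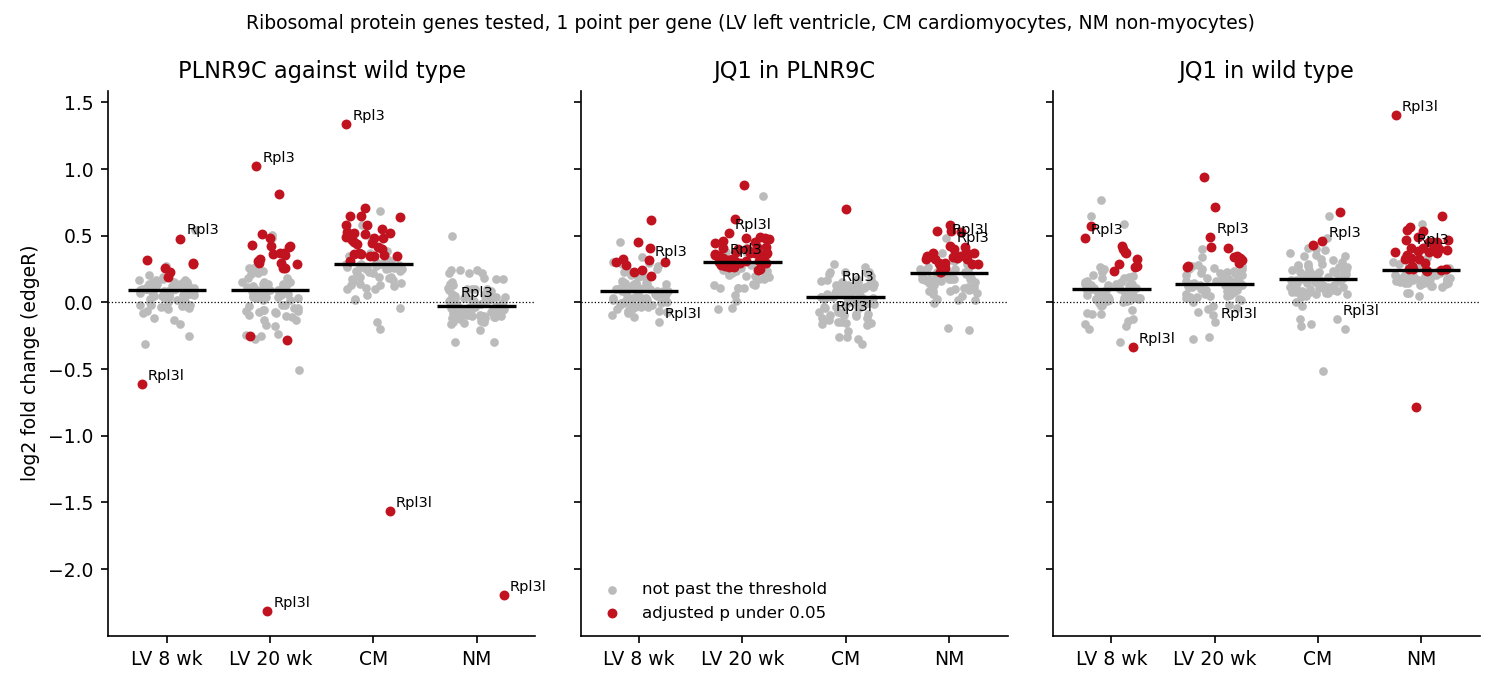
Log2 fold change of each ribosomal protein gene tested, by comparison and sample type (LV left ventricle, CM cardiomyocytes, NM non-myocytes), with a line at the median. Red points passed an adjusted p of 0.05, and the median reached 0.29 for PLNR9C against Wild type in cardiomyocytes and 0.30 for JQ1 in PLNR9C ventricle at 20 weeks.

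With JQ1, ribosomal protein genes that passed the test almost all rose. In PLNR9C ventricle at 20 weeks 45 of 85 genes rose and 0 fell, where 15.9% of all genes rose and 16.1% fell. The median log2 fold change was 0.30 against 0.0043 over all genes, and 83 of 85 lay above 0. Of the large-subunit genes 26 of 51 rose, and of the small-subunit genes 19 of 34. The count was 22 without PLNR9C JQ1 replicate 1 or PLNR9C vehicle replicate 3, and 25 without PLNR9C vehicle replicate 2, all of them up. In Wild type at 20 weeks 12 of 85 rose and 0 fell, where 12.3% of all genes rose and 14.9% fell, with a median of 0.14. That count was 20 without Wild type JQ1 replicate 3 or Wild type vehicle replicate 1. At 8 weeks 11 of 86 rose in PLNR9C and 0 fell (15.5% and 17.7% of all genes), and in Wild type 11 rose and 1 fell (14.3% and 15.4%).

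In non-myocytes 27 of 85 genes rose and 0 fell in PLNR9C, where 16.7% of all genes rose and 19.5% fell. In Wild type 32 rose and 1, Rps4y2, fell, where 18% of all genes rose and 20% fell. The medians were 0.22 and 0.24. The PLNR9C count was 15 without PLNR9C vehicle replicate 2. The Wild type count of 33 was 21 and 20 without vehicle replicates 1 and 2, and 19 without JQ1 replicate 3. With total library size the counts were 9 in PLNR9C and 9 in Wild type, given without the share of all genes under that scaling. The call on Rps4y2 was lost without vehicle replicate 1 (0.061), JQ1 replicate 2 (0.091) or JQ1 replicate 3 (0.067). In cardiomyocytes 1 gene of 84 rose in PLNR9C (6.14% of all genes rose and 4.33% fell), which was Rps2. Without PLNR9C JQ1 replicate 1 a second gene passed, in the downward direction. In Wild type cardiomyocytes 3 rose (1.7% of all genes rose and 1.93% fell), which were Rps2, Rpl3 and Rplp0, and all 3 calls were lost when any of the 6 libraries compared was left out. Among the cardiomyocyte groups, PLNR9C with JQ1 spanned 40819 to 66920 CPM of cardiomyocyte markers and 755 to 2434 CPM of fibroblast markers.

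Counting with total library size in place of TMM scaling moved the median of all genes by over 0.1 in several contrasts, to 0.27 for genotype at 20 weeks, 0.15 for genotype in cardiomyocytes and -0.19 for JQ1 in Wild type non-myocytes. Under it, genotype at 20 weeks gave 57 genes up and 1 down in place of 19 and 3. JQ1 at 8 weeks in PLNR9C gave 3 up and 1 down in place of 11 and 0, and JQ1 at 20 weeks in Wild type gave 6 up and 1 down in place of 12 and 0. Shares of all genes called under this scaling are not given here, so no excess of the family over all genes is read from these counts. The median of the ribosomal protein genes moved with that of all genes: for JQ1 in PLNR9C at 20 weeks it was 0.23 against -0.066 over all genes.

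Rps2 was the one ribosomal protein gene that rose in all 8 JQ1 comparisons, with log2 fold changes of 0.53 to 0.88. In PLNR9C ventricle at 20 weeks Rps2 stood at 91.2, 74.1 and 77.7 RPKM with vehicle and at 154, 145 and 128 RPKM with JQ1 (0.88 ± 0.10, adjusted p = 6.6e-06 by edgeR). In Wild type at 20 weeks it stood at 93.1, 74.3 and 73.8 RPKM and at 128, 124 and 117 RPKM (0.71 ± 0.10, adjusted p = 5.6e-05). At 8 weeks it rose from 100, 103 and 94.1 RPKM to 148, 145 and 135 RPKM in Wild type (0.58 ± 0.07, adjusted p = 9.7e-06). The groups did not overlap in any of the 8. In PLNR9C cardiomyocytes Rps2 stood at 143, 131 and 115 RPKM with vehicle and at 253, 182 and 180 RPKM with JQ1 (0.70 ± 0.15, adjusted p = 0.013). With only the 6 libraries of those groups the adjusted p was 0.084. In non-myocytes Rps2 rose from 119, 116 and 114 RPKM to 171, 146 and 162 RPKM in Wild type (0.65 ± 0.08, adjusted p = 6.8e-05).

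Rplp0, the base of the stalk, rose in 7 of the 8 comparisons, as did Rpl3. In PLNR9C non-myocytes Rplp0 stood at 275, 246 and 259 RPKM with vehicle and at 356, 327 and 336 RPKM with JQ1 (0.54 ± 0.09, adjusted p = 0.00056 by edgeR). In Wild type ventricle at 8 weeks it rose from 157, 165 and 158 RPKM to 209, 195 and 206 RPKM (0.40 ± 0.06, adjusted p = 0.00011). In each of these the highest vehicle library lay below the lowest JQ1 library. Rpl7a, Rpl41, Rps24 and Rpl15 rose in 6 comparisons, and Rpl12, Rpl10a, Rps20 and Rps15a in 5. All of these 11 genes had log2 fold changes above 0 in all 8 comparisons. Rpl7a rose in PLNR9C ventricle at 8 weeks from 108, 108 and 112 RPKM to 132, 145 and 140 RPKM (0.45 ± 0.06, adjusted p = 1.3e-05). With total library size the calls on Rpl41, Rpl15 and Rps15a in PLNR9C at 8 weeks and on Rpl7a in Wild type at 20 weeks were lost. In contrast, 28 genes tested passed upward in no JQ1 comparison and 28 in 1. Rpl29 on chromosomes 1 and 5, both among the former, were tested in only 2 and 6 of the 8. How many of all genes rose in as many JQ1 comparisons was not counted, so this recurrence is not read as particular to the family. The JQ1 contrasts in PLNR9C and the genotype contrast share the vehicle PLNR9C libraries, and JQ1 in Wild type shares the vehicle Wild type libraries with it.

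**Figure D4:**
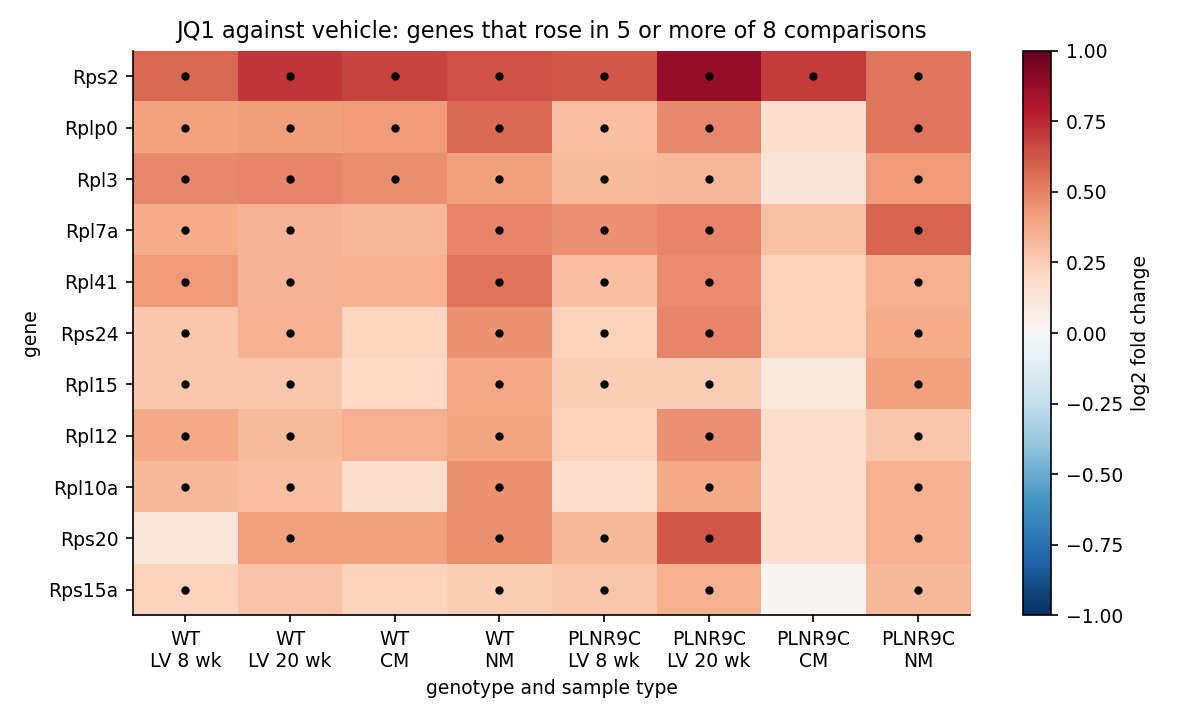
Log2 fold change with JQ1 against vehicle for the 11 ribosomal protein genes that rose in 5 or more of the 8 comparisons (LV left ventricle, CM cardiomyocytes, NM non-myocytes, WT Wild type). A dot marks an adjusted p under 0.05: Rps2 has a dot in all 8 columns, while in the cardiomyocytes of PLNR9C mice the other 10 genes have none.

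Whether JQ1 acted differently in the 2 genotypes was tested directly. By edgeR 0 genes of the family passed in any sample type, where 0.00645% of all genes passed at 8 weeks, 0.357% at 20 weeks and 0% in either fraction. At an unadjusted p under 0.05 there were 1, 6, 3 and 0, and the share of all genes at that level was not counted. DESeq2 called 1 at 20 weeks, Rpl3l, and 0 in the other sample types. In non-myocytes Rpl3l passed when PLNR9C JQ1 replicate 1 was left out (-1.77, adjusted p = 0.026). The interaction lay above 0 for 73 of 85 genes at 20 weeks (median 0.14, against 0.024 over all genes) and below 0 for 71 of 84 in cardiomyocytes (median -0.15, against -0.016). The higher count in PLNR9C than in Wild type ventricle at 20 weeks thus comes with no difference that passed for a single gene in edgeR with all libraries and the filter.

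Under TMM, smaller shares of ribosomal proteins than of all genes were called between the fractions, 24.7% higher and 16.5% lower in cardiomyocytes. Between vehicle Wild type cardiomyocytes and non-myocytes 21 of 85 genes were higher in cardiomyocytes and 14 lower, where 37.3% of all genes were higher and 42.2% lower. With total library size the split was 1 higher and 75 lower, and the median of all genes moved from -0.13 to -1.10, so only differences within the family are read from this contrast. Rpl3l was highest in cardiomyocytes relative to non-myocytes (log2 fold change 5.12 ± 0.29) and Rpl3 among the lowest (-1.36 ± 0.10). Rps12 (-0.79 ± 0.10), Rps4x (-0.66 ± 0.10), Rps16 (-0.60 ± 0.12) and Rpl10 (-0.53 ± 0.10) also lay on the lower side under TMM. Rps2 (1.02 ± 0.13), Rpl36 (0.92 ± 0.13), Rpl24 (0.90 ± 0.12) and Rplp0 (0.63 ± 0.10) lay on the higher side, but with total library size Rpl36, Rpl24 and Rplp0 turned below 0 and Rps2 no longer passed. Rps4y2 (-1.44 ± 0.30) was at 7.83, 6.63 and 7.21 RPKM in vehicle Wild type non-myocytes, and its near-identical relative Rps4x could share reads with it.

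**Figure D5:**
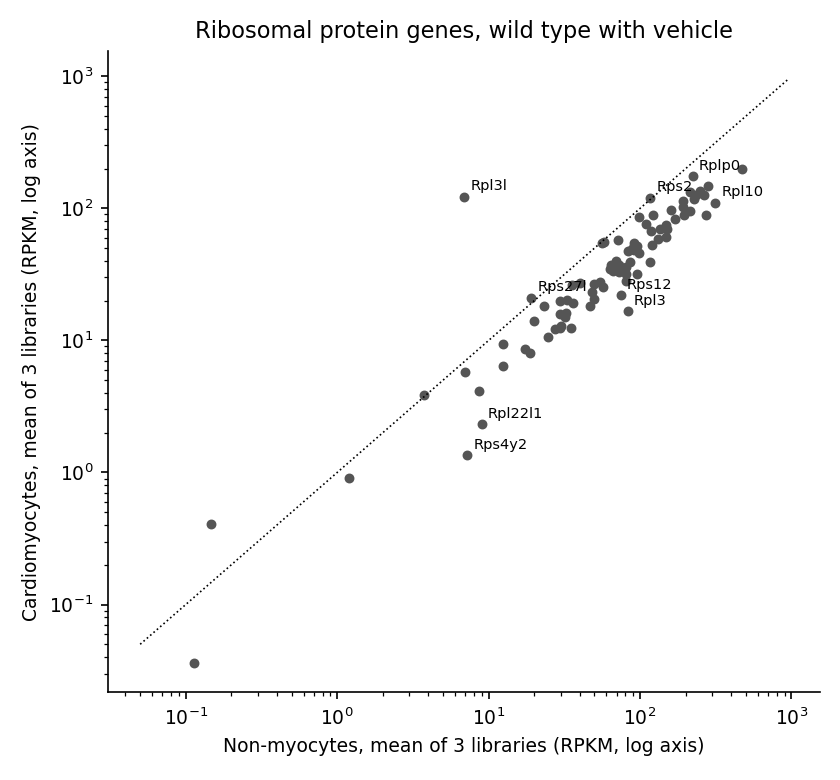
Mean RPKM of each ribosomal protein gene in vehicle Wild type cardiomyocytes against non-myocytes, 3 libraries each, on log axes, with a dotted line at equality. Most genes lie below the line, and Rpl3l lies far above it.

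Other paralogs had lower medians than their partners, by margins that varied. Rpl22l1, the paralog of Rpl22, had a median of 4.52 RPKM in ventricle at 20 weeks against 31.5 RPKM for Rpl22. It stood at 2.77, 2.21 and 2.12 RPKM in vehicle Wild type and at 5.21, 4.47 and 5.35 RPKM in vehicle PLNR9C, without overlap. The edgeR log2 fold change of Rpl22l1 was 0.81 ± 0.24 for genotype (adjusted p = 0.010) and 0.94 ± 0.24 for JQ1 in Wild type (adjusted p = 0.0071), where it reached 3.88, 4.57 and 4.32 RPKM. Rps27l, the paralog of Rps27, had a median of 26.7 RPKM in cardiomyocytes against 34.1 RPKM for Rps27, and of 17.4 against 43.6 RPKM in ventricle at 8 weeks. It rose with genotype in cardiomyocytes (0.65 ± 0.21, adjusted p = 0.036), with JQ1 in PLNR9C ventricle at 20 weeks (0.36 ± 0.13, 0.046) and with JQ1 in Wild type non-myocytes (0.47 ± 0.17, 0.045). Rpl7l1 and Rpl36al passed only in the fraction contrast (0.56 ± 0.11 and 0.68 ± 0.25).

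Genes that build or serve the ribosome did not all move with its proteins. In PLNR9C cardiomyocytes 15 of 39 ribosome biogenesis factors rose and 0 fell with a median of 0.40, where 14.3% of all genes rose and 11.8% fell. Those named from the list are Rrp12 (1.72 ± 0.26), Gnl3 (0.80 ± 0.17) and Nhp2 (0.89 ± 0.20). In the other genotype contrasts 1 of 39 rose and 0 fell at 8 weeks (median 0.072), where 7.86% of all genes rose and 6.5% fell. At 20 weeks 5 rose and 4 fell (median -0.046), beside 23.3% and 21.4% of all genes. For non-myocytes 5 rose and 0 fell (median 0.20), beside 10.3% and 8.32%. Rrp12, which exports pre-ribosomes from the nucleus, rose in PLNR9C at 8 weeks (0.60 ± 0.11), at 20 weeks (0.91 ± 0.16) and in non-myocytes (0.82 ± 0.20).

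With JQ1 in PLNR9C, 4 of 39 biogenesis factors rose and 3 fell at 8 weeks, and 4 rose and 1 fell at 20 weeks. Of the same factors 1 rose and 4 fell in cardiomyocytes, and 5 rose and 8 fell in non-myocytes. Of all genes 15.5%, 15.9%, 6.14% and 16.7% rose and 17.7%, 16.1%, 4.33% and 19.5% fell, in the same order. With JQ1 in Wild type, 5 rose and 3 fell at 8 weeks, and 4 rose and 3 fell at 20 weeks. Of the same factors 1 rose and 0 fell in cardiomyocytes, and 7 rose and 5 fell in non-myocytes. Of all genes 14.3%, 12.3%, 1.7% and 18% rose and 15.4%, 14.9%, 1.93% and 20% fell, in the same order. Nop56, a core protein of the particles that modify ribosomal RNA, rose in all 8 of these comparisons by 0.61 to 1.20, and Pabpc1, a poly(A)-binding protein with a TOP start, by 0.57 to 0.90. Of the 15 other TOP genes measured, JQ1 in PLNR9C raised 5 and 6 in ventricle (8 and 20 weeks), 1 in cardiomyocytes and 5 in non-myocytes, and of the 8 elongation factor genes 3, 4, 1 and 4. The shares of all genes that rose in these 4 comparisons were 15.5%, 15.9%, 6.14% and 16.7%. In Wild type JQ1 raised 5, 3, 1 and 9 of the 15 TOP genes and 5, 4, 0 and 5 of the 8 elongation factor genes, in the same order, beside 14.3%, 12.3%, 1.7% and 18% of all genes. By edgeR 0 genes of both lists fell in any of the 8.

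Of the 76 mitochondrial ribosomal proteins, 57 fell and 0 rose in PLNR9C ventricle at 20 weeks (median -0.43), where 21.4% of all genes fell, for example Mrpl39 (-1.01 ± 0.09, adjusted p = 5.6e-08). For genotype at 8 weeks 15 fell and 0 rose, where 6.5% of all genes fell. PLNR9C cardiomyocytes had 11 that fell and 1 that rose, where 11.8% of all genes fell and 14.3% rose. For non-myocytes 0 fell and 0 rose, where 8.32% and 10.3% of all genes did. With JQ1 in PLNR9C at 20 weeks 26 of the 76 rose and 0 fell, where 15.9% of all genes rose, among them Mrpl49 (0.61 ± 0.08). At 8 weeks 11 rose and 1 fell in PLNR9C (15.5% and 17.7% of all genes). Wild type had 4 and 2 there (14.3% and 15.4%), and 6 and 0 at 20 weeks (12.3% and 14.9%). In cardiomyocytes 0 passed in PLNR9C (6.14% and 4.33%) and 0 in Wild type (1.7% and 1.93%). In non-myocytes 3 rose and 14 fell in PLNR9C (16.7% and 19.5%), and 12 and 4 in Wild type (18% and 20%). Under TMM all 76 were higher in vehicle Wild type cardiomyocytes than in non-myocytes (median 2.27), where 37.3% of all genes were higher. That contrast depends on the scaling, and the count for this list was not recomputed with total library size. At 20 weeks the cardiomyocyte markers were lower in vehicle PLNR9C than in vehicle Wild type ventricle (34993 and 67246 CPM). They were higher with JQ1 than with vehicle in PLNR9C at that age (46658 and 34993 CPM), and their part in these counts was not tested.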

How the data were processed

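RNA was sequenced from 48 mouse libraries in 16 groups of 3. Per the labels' protocols, RNA was isolated with TRIzol and libraries made with Nextera. Per the submitters' processing notes, STAR 2.4.1b and the builds GRCm38 and mm10 were named, and the sources used here do not give the counting tool or strand setting. Read counts per gene are as deposited by the authors, per the file headers. RPKM values are the authors' normalized values, given per the file headers without that name, and they implied the same length for a gene across libraries to within 0.1% wherever all libraries had 50 reads or more. RPKM values entered no test. They are scaled by total reads without TMM, so their ratios can differ from the fold changes given beside them.

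Each sample type (12 libraries) was fitted in edgeR 4.0.16 under R 4.3.3 with filterByExpr, TMM and the robust quasi-likelihood test, Benjamini-Hochberg over all genes, threshold 0.05. The fit covered 15501, 15971, 14142 and 15347 genes at 8 weeks, 20 weeks, in cardiomyocytes and in non-myocytes, and 86, 85, 84 and 85 of the 88 members. Rpl10l and Rpl39l were not tested in any fit, nor Rpl29 on chromosome 1 outside the 8-week fit, nor Rpl29 on chromosome 5 in cardiomyocytes. The 24 fraction libraries were fitted together for the fraction contrast. Comparisons with JQ1 in both genotypes were added to those planned. SE is the log2 fold change divided by the square root of F. CPM used TMM library sizes. Fits were tested on simulated data. Members and lists were chosen with earlier results of these data known. Named genes are Rpl3, Rpl3l, paralog pairs, the stalk proteins, up to 6 each way with the smallest p per comparison, and the extremes of level. Some genes that the rule names are not reported here. Alternatives were DESeq2 1.42.0, total library size, no mitochondrial genes, no filter, only the groups compared, the replicate number as a block, and each library left out in turn.

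Groups share replicate numbers, and the labels do not say what a number marks. Correlations of same-numbered libraries' deviations from the group means ran from -0.20 to 0.298 over 13 comparisons. Every pair was over 0.1 in 2 of them, the genotype contrast in non-myocytes and the fraction contrast, where the replicate block changed no call of Rpl3 or Rpl3l. The series' design text calls the 3 libraries of a group individual biologic replicates.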

Additional observations from a re-analysis of the deposited data

Results flagged for a closer look

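Rpl3l moved in opposite directions with JQ1 in Wild type mice: it was higher in all 3 JQ1 non-myocyte libraries (log2 fold change 1.40) and lower in all 3 JQ1 ventricle libraries at 8 weeks (-0.34). The difference between the sample types was not tested, since they were fitted apart. The 8-week call passed narrowly (adjusted p = 0.049 by edgeR) and was lost in most fits that left out 1 library. In non-myocytes the summed cardiomyocyte markers averaged 2927 CPM with vehicle and 7612 CPM with JQ1. Rpl3l per 1000 CPM of markers was 3.51 CPM and 3.59 CPM there.

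For 4 other genes, complete separation of the groups pointed one way in 1 sample type and the other way in another, and none of these differences was tested. Rpl19 was higher in PLNR9C cardiomyocytes (0.44, adjusted p = 0.033 by edgeR) and lower in PLNR9C non-myocytes (-0.15, 0.23). Rpl21 was higher in PLNR9C cardiomyocytes (0.35, 0.025) and lower in non-myocytes (-0.06, 0.68). With JQ1 in Wild type, Rpl35 was higher in non-myocytes (0.40, 0.038) and lower in ventricle at 8 weeks (-0.14, 0.35). With JQ1 in both genotypes, Rpl37a was higher in PLNR9C than in Wild type in ventricle at 20 weeks (0.42, 0.029) and in cardiomyocytes (0.38, 0.068), and lower in non-myocytes (-0.27, 0.18). None of the 4 lower values passed the threshold. How many of all genes separate in opposite directions was not counted, so no opposite movement is read from these genes.

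The 5 symbols marked -ps that the rule leaves out still held reads in the tables. The most in a library was 551 reads at 8 weeks, 536 at 20 weeks, 409 in non-myocytes and 222 in cardiomyocytes.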

How the results depend on the processing

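The 9 balance tests kept direction and call under the other 3 settings (share per length, 1 read added, replicate block). With 1 library left out, 2 of 132 values changed call, both for JQ1 in cardiomyocytes (-0.53 to -0.33). The other 8 balance values ranged, with 1 library left out, from -0.71 to -0.55 and from -0.99 to -0.83 at 8 weeks (JQ1, genotype), from -0.32 to -0.16 and from -3.00 to -2.84 at 20 weeks, from -2.86 to -2.65 for genotype in cardiomyocytes, from 0.098 to 0.62 and from -3.08 to -2.56 in non-myocytes, and from 5.6 to 5.86 between fractions.

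Counts of ribosomal protein genes called moved with the scaling and with single libraries. With total library size, genotype called 23 genes at 8 weeks, 58 at 20 weeks and 55 in cardiomyocytes. Under the same scaling JQ1 in PLNR9C called 4 at 8 weeks, 22 at 20 weeks and 9 in non-myocytes, JQ1 in Wild type called 7 at 20 weeks, 9 in non-myocytes and 1 in cardiomyocytes, and the fraction contrast called 76. These counts are given without the shares of all genes called under that scaling, so they are not read as an excess of the family. Among the named genes, those that turned sign with total library size were Rps2 for genotype at 20 weeks (0.011) and, between fractions, Rpl24 (-0.065), Rpl36 (-0.045) and Rplp0 (-0.34). DESeq2 called 1 gene for the interaction at 20 weeks and 2 for genotype in non-myocytes. Without the filter, 1 gene passed for the interaction at 20 weeks. With only the groups compared, 0 passed for JQ1 in PLNR9C cardiomyocytes and 2 for genotype in non-myocytes. The replicate block left 1 gene for JQ1 in Wild type cardiomyocytes in place of 3, and moved no other count of calls by over 1.5 times. The cause of these changes was not tested.

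With 1 library left out, the counts ranged for genotype from 3 to 8 at 8 weeks, 14 to 24 at 20 weeks, 7 to 40 for cardiomyocytes and 1 to 2 for non-myocytes. For JQ1 in PLNR9C they ranged from 8 to 12, 22 to 49, 1 to 2 and 15 to 37 in the same order, and for JQ1 in Wild type from 10 to 15, 8 to 20, 0 to 3 and 19 to 35. The interaction ranged from 0 to 0, 0 to 1, 0 to 0 and 0 to 1, and the fraction contrast from 31 to 37. Depth limits Rpl3l in PLNR9C non-myocytes, which rests on 13 to 65 reads per library.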
